A study of Mus musculus with 8 samples.

Results

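The 40 genes described here encode the core machinery of DNA replication and cell division. They were chosen by name from the 21883 protein-coding genes considered. No measured value was the criterion, but earlier results of these data were known when they were chosen. They comprise the 6 Mcm2 to Mcm7 helicase genes, 8 cyclin genes, 4 cyclin-dependent kinase (CDK) genes, 4 CDK inhibitor genes, 8 E2F genes, the 3 genes of the Rb family and 7 genes of S phase and mitosis. All 40 were found in the gene table by symbol. A called PU.1 peak summit inside a gene, or no more than 10 kb from it, counted as a site of that gene.

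The sites came from chromatin immunoprecipitation and sequencing (ChIP-seq) of PU.1 in AML246, a mouse acute myeloid leukaemia line grown with IL-3, in which PU.1 was restored under doxycycline (Dox, 0.1 ug/mL) and reduced after Dox withdrawal on day 12 of a 24 day course. The restoration libraries were untreated cells (day 0) and cells after 4, 8 and 12 days of Dox, all from total viable cells. The 3 libraries titled knockdown carried treatment labels that named other time points. The treatment label of Day 12- 4 gave 12 days of Dox, and its cells were Cd11b-high viable cells. The labels of Day 12- 8 and Day 12- 12 gave 4 and 8 days without Dox, both from total viable cells. All 3 are called by their titles here, and values in title order belong to Day 12- 4, Day 12- 8 and Day 12- 12 in turn. All groups share 1 cell line, each had 1 library, and the sample labelled 12 days off Dox was not analysed here. With 1 library per time point no difference could be set against replicate error, so no p-values are given and all values describe these libraries. Summit lists hold no expression values, so the cell type was not checked against marker genes.

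PU.1, encoded by Spi1, belongs to the ETS family of transcription factors and directs myeloid maturation, during which cells leave the cell cycle. Entry into S phase is governed by D-type cyclins with Cdk4 and Cdk6 and by E-type cyclins with Cdk2, which phosphorylate the Rb family and so release E2F factors onto the promoters of replication genes. Cyclin A and cyclin B with Cdk1 then carry cells into mitosis, and CDK inhibitors oppose these steps.

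All 40 genes had a called PU.1 site at day 12, against 20 of 40 at day 0, in lists of 86271 and 8043 summits. Of all protein-coding genes, 77.1% had one at day 12 and 36.8% at day 0. Both times gave a site at 20 of the 40 genes, against 35.0% of all, and the other 20 had one at day 12 only of the pair, a class that held 42.1% of all protein-coding genes. None of the 40 lacked a site in every library, as 13.4% of all genes did, and none had a day 0 site without a day 12 site, a class that held 1.76% of all genes. The genes with a day 0 site were Cdk2, Cdk4, Cdk6, Ccnd3, Ccne2, Cdkn2c, E2f1 to E2f5, E2f7 and all 3 Rb family genes. Mcm2, Mcm5, Mcm6, Mki67 and the mitotic gene Aurkb had one too. The day 0 sites of Mcm2, Mcm6, Cdk2, Cdk4, Cdkn2c, Rbl2 and Aurkb lay outside the gene and at or nearest to another gene. Genes without a day 0 site included the mitotic genes Ccnb1, Ccnb2, Cdk1, Plk1, Aurka, Bub1 and Top2a, and the inhibitors Cdkn1a, Cdkn1b and Cdkn2d. They also included Mcm3, Mcm4, Mcm7, Pcna, Ccna2, Ccnd1, Ccnd2, Ccne1, E2f6 and E2f8. The score of a summit, deposited by the authors, was read as a −log10 q-value. It depends on the depth and control behind its own list, so a site's higher or lower score in another library is no measure of more or less binding. Summits within 100 bp of each other were treated as 1 position, quoted where a day 12 summit lay if there was one.

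**Figure D1:**
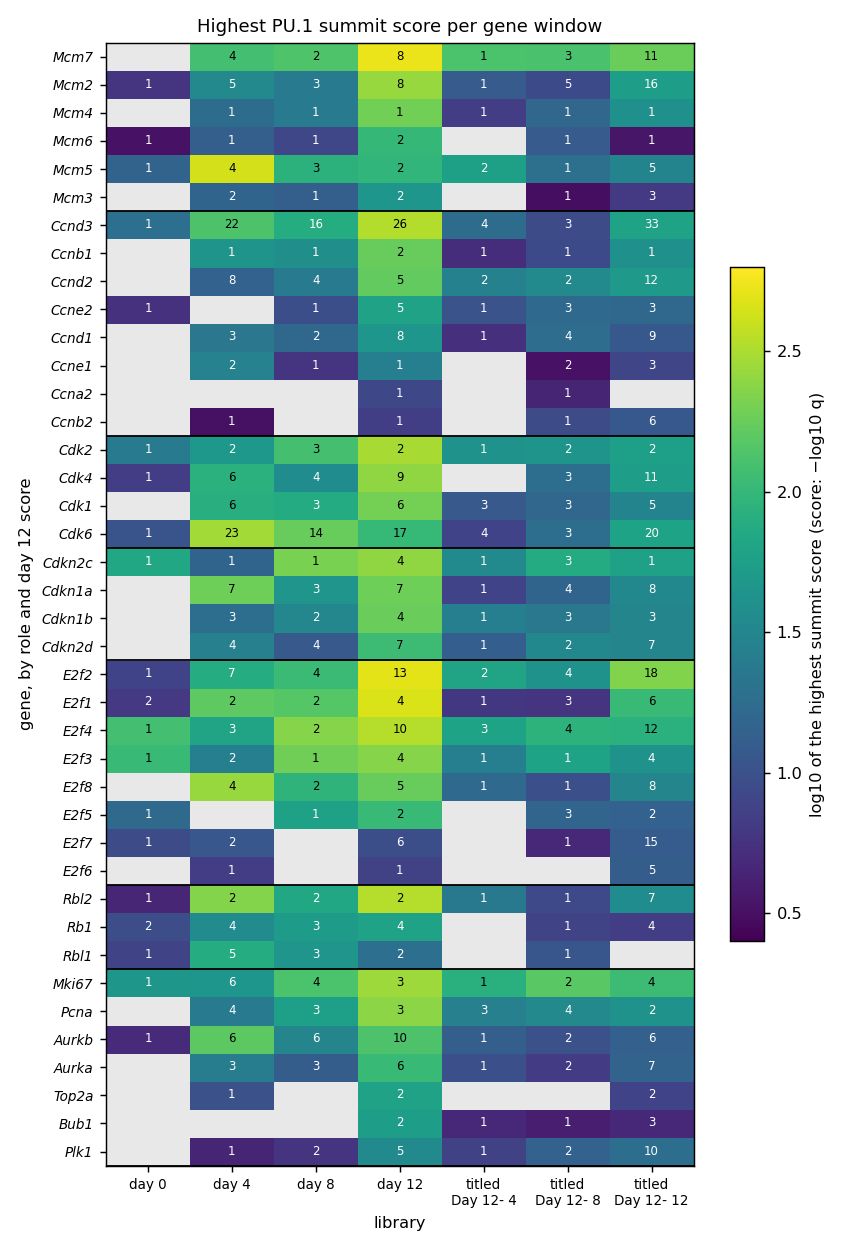
Each row is 1 of the 40 genes, grouped by role (black lines) and ordered by day 12 score, and each column is 1 library. Colour gives log10 of the highest summit score in the gene window, the number in a cell counts the summits there, and grey cells had none. The day 12 column has no grey cell, while 20 genes are grey at day 0.

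At 9 genes a position called in at least 5 of the 7 libraries lay in the promoter window or within 100 bp of it. The starts of 6 are shown, taken by number of libraries and then by day 12 score, and those of Cdk1, Aurka and Mcm5 are not. The sequences come from RefSeq (assembly GRCm38.p6, equal to mm10 in coordinates) and run 5′ to 3′ on the gene's strand from 250 bases before the annotated start through the first 30 bases of the transcript. Capitals mark GGAA or its reverse TTCC, the core bound by ETS factors.
Cdk2: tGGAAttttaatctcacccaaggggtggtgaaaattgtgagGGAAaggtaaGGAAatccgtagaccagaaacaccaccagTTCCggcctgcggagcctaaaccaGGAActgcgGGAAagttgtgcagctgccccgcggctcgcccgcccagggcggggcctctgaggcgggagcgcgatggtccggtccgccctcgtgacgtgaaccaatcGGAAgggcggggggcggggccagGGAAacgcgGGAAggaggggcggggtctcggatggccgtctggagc
Mki67: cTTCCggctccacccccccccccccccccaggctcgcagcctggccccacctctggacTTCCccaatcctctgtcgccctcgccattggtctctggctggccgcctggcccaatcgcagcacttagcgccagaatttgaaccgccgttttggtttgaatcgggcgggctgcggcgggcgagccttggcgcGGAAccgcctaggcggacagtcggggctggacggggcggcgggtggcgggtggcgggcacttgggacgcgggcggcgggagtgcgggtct
E2f3: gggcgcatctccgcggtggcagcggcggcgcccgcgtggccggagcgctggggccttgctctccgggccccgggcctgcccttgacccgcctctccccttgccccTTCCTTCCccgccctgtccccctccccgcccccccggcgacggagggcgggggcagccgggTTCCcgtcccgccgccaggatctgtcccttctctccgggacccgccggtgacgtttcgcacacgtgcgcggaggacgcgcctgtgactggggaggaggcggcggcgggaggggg
Mcm7: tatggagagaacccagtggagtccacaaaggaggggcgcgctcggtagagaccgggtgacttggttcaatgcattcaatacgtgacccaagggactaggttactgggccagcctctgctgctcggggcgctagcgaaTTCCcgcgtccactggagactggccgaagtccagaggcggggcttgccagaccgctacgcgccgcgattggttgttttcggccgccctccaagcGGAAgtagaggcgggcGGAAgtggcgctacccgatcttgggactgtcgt
Ccnd3: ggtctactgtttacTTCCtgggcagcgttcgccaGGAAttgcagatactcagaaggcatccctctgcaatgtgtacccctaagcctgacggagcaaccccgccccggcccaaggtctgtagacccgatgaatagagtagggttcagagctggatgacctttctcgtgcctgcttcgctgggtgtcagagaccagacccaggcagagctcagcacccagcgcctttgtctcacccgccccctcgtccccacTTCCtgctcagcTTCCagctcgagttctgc
Mcm2: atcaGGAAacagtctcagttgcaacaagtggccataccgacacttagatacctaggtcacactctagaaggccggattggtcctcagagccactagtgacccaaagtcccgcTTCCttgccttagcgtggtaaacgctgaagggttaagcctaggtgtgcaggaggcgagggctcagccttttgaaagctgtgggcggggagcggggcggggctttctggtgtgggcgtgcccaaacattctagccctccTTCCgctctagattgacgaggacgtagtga

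These windows lie at chr10:128705022-128705301 (Cdk2, minus strand), chr7:135716350-135716629 (Mki67, minus), chr13:29984362-29984641 (E2f3, minus), chr5:138171237-138171516 (Mcm7, minus), chr17:47504801-47505080 (Ccnd3, plus) and chr6:88898751-88899030 (Mcm2, minus). At Mcm7 the day 12 summit lay 2 bp upstream of the start and 0.5 bp from the centre of a capitalised core, the one that begins 3 bases before the start. At Ccnd3 and Mcm2 the day 12 summit lay 10 and 9 bp into the transcript, 3.5 and 7.5 bp from the nearest core. At Cdk2 it lay 105 bp upstream, 30.5 bp from the nearest of 9 cores. The E2f3 summit lay 39 bp into the transcript and the Mki67 summit 294 bp upstream of the start, both just outside the printed bases. Cores are frequent, with a median of 3 per promoter window of these genes, and 95.7% of 21262 promoter windows of protein-coding genes hold at least 1. Such a match is therefore a description and not evidence of a bound site.

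A longer PU.1-type sequence, GAGGAAGT on either strand, was in 0 of the 37 promoter windows of the 31 genes that had one, and in 3.13% of all such windows. The ETS sequence CCGGAAGT, common at promoters, was in 1 member window, that of Aurka, and in 5.15% of all. The E2F-type sequence TTTCCCGC was in 5 of the 37 windows, for 5 genes (Cdk2, E2f3, E2f7, Mcm3 and Mcm7), and in 1.41% of all windows. TTTGGCGC was in 4 of the 37, for 4 genes (E2f2, Mcm3, Mcm5 and Mcm6), against 0.635% of all. The cell cycle homology region TTTGAA, known from promoters of mitotic genes, was in 11 of the 37 windows and in 16.0% of all. These belonged to 11 genes, among them Mki67, where it occurs at 116 and 98 bases before the start. GGAA is part of GAGGAAGT and CCGGAAGT and of the reverse of TTTCCCGC, so these matches overlap. The TTTCCCGC match in the printed Cdk2 window begins 140 bases before the start, on the reverse strand. The matches of E2f3 and Mcm7 lay in other promoter windows of these genes, not in the printed ones.

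The Mcm2 to Mcm7 genes encode the hexameric helicase that is loaded at replication origins and unwinds DNA. The number with a site was 3 at day 0 (Mcm2, Mcm5 and Mcm6), 6 at each of days 4, 8 and 12, and 4, 6 and 6 in title order. Of all protein-coding genes, 36.8%, 69.8%, 61.7% and 77.1% had a site at days 0, 4, 8 and 12. In title order the shares were 34.8%, 61.8% and 78.9%. These shares stand beside the count of every role below, and with so few genes per role no difference was tested. Mcm7 carried the highest day 12 score of the 40 genes. Its start site was not called at day 0, scored 120.3, 139 and 538 at days 4, 8 and 12, and scored 131, 128 and 181 in title order. The summits of these 6 libraries fell within 31 bp of each other. The Mcm2 start site also lacked a day 0 call and scored 23.6, 24.3 and 271 at days 4, 8 and 12, then 12.2, 8.69 and 55.4 in title order. The day 0 site counted for Mcm2 was another position, 8709 bp outside the gene and inside or nearest to Podxl2, with a score of 5.91. The Mcm6 position with a day 0 call lay 8365 bp outside that gene, at or nearest to Lct, and scored 3.32 at day 0.

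Mcm5 held a pair of recurrent sites with different profiles. A site 10445 bp downstream of its start, inside the gene (chromosome 8, 75119954), scored 14.6, 439, 88.1 and 90.4 at days 0, 4, 8 and 12. Under the titles Day 12- 4 and Day 12- 12 it scored 58.0 and 18.8, and it was not called under Day 12- 8. The site 76 bp into the transcript was called in 5 libraries, neither at day 0 nor at day 4, and scored 9.94 at day 8 and 96.1 at day 12. The internal site thus ranked above the start site at days 4 and 8, while at day 12 both had similar scores. Mcm4 had 1 site, called in 6 libraries with a day 12 score of 193. It lay 508 bp outside Mcm4 at or nearest to Prkdc, which encodes a DNA repair kinase, so the file does not tie it to either gene. Mcm6 and Mcm3 scored 100.03 and 45.8 at day 12 at sites 16 bp upstream of and 73 bp downstream of their starts, and the Mcm3 position was called in no other library, although other positions within 1 kb of that start were called at days 4 and 8 and under Day 12- 8.

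Among the 8 cyclin genes, 2 had a site at day 0 (Ccnd3 and Ccne2), 6 at each of days 4 and 8, 8 at day 12, and 5, 8 and 7 in title order. Ccnd3, which encodes the D-type cyclin prominent in blood cells, stood apart in number, with 1 summit at day 0 and 22, 16 and 26 at days 4, 8 and 12. In title order it had 4, 3 and 33. The gene is 94639 bp long, and long windows collect more summits. Its site at the upstream start shown above was not called at day 0 and scored 28.7, 52.2 and 335 at days 4, 8 and 12. A site 14 bp upstream of another annotated start (chromosome 17, 47593453) was called in a different set of libraries. It scored 18.9, 19.8 and 45.8 at days 0, 8 and 12 and 8.54 under the title Day 12- 8, with no call at day 4 or under the other titles. A further site 18444 bp into Ccnd3 (47523495) also scored 335 at day 12, and it scored 17.7 and 52.3 under Day 12- 4 and Day 12- 12. The highest Ccnd3 scores at days 4 and 8, 136 and 77.3, lay close to it, at 47523657 and 47523636.

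The remaining D-type genes had lower day 12 scores than Ccnd3, while under Day 12- 8 both scored higher than it. Ccnd2 had its highest day 12 site inside the gene (chromosome 6, 127143315), at 167, with 6.97 and 24.6 at days 4 and 8. Another site inside Ccnd2 (127151822) scored 15.8 and 119 at days 8 and 12 and 28.4, 35.0 and 50.1 in title order. Ccnd1 scored 46.2 at day 12 and 18.1 under Day 12- 8 and had no day 0 site. The mitotic cyclin Ccnb1 scored 176 at day 12, but that site lay 2869 bp outside the gene and nearest to or inside Cenph, a centromere protein gene. Ccnb2 and Ccna2, whose products act with Cdk1 and Cdk2 through S phase and mitosis, scored 7.07 and 8.25 at day 12, the lowest of the group. Ccna2 had a site in 2 libraries, the fewest of the 40 genes. The E-type genes Ccne1 and Ccne2 scored 27.2 and 60.9 at day 12.

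Of the 4 CDK genes, 3 had a site at day 0, 4 at each of days 4, 8 and 12, and 3, 4 and 4 in title order. At Cdk2 the site 105 bp upstream of the start was called in all 7 libraries, and it lay inside the annotated span of Pmel, a melanosome gene that overlaps Cdk2. It scored 25.04 at day 0, 47.4, 124 and 309 at days 4, 8 and 12, and 41.6, 43.4 and 57.2 in title order. Cdk1, the mitotic kinase, lacked a day 0 site. The site 100 bp upstream of its start scored 15.3, 23.7 and 201 at days 4, 8 and 12 and 11.7, 15.5 and 30.3 in title order.

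Cdk6, the kinase partner of D-type cyclins in many blood cells, is the longest of the 40 genes at 190005 bp. It held 23, 14 and 17 summits at days 4, 8 and 12, against 1 at day 0 and 4, 3 and 20 in title order. Its highest-scoring day 4 site, inside the gene and 158858 bp downstream of an annotated start (chromosome 5, 3502751), scored 292, 176 and 50.1 at days 4, 8 and 12. The highest-scoring Cdk6 site at day 12 (3461687) was another one, at 101, and scored 70.3 and 16.1 at days 4 and 8. The day 0 site of Cdk6 lay 478 bp into the transcript, scored 10.5, and had its only other call under Day 12- 8, at 18.4. Cdk4 had its highest day 12 score, 253, at a site 8048 bp outside the gene and at or nearest to Agap2, while the site 260 bp into the Cdk4 transcript scored 73.0. The day 0 site of Cdk4 lay 3855 bp outside the gene, at or nearest to Marchf9, and scored 6.81.

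The CDK inhibitor genes, which restrain the cycle during differentiation, all had a site in each of the 6 libraries other than day 0. Of all protein-coding genes, between 34.8% and 78.9% had a site in these libraries. At day 0 Cdkn2c (p18) had 1 and the other inhibitor genes had 0. The Cdkn2c site lay 9859 bp outside the gene, close to the limit of the window and at or nearest to Faf1, and it was called in all 7 libraries. Its scores were 67.7 at day 0, 14.9, 209 and 249.9 at days 4, 8 and 12, and 35.1, 75.0 and 58.8 in title order. Cdkn1a (p21) had 7, 3 and 7 summits at days 4, 8 and 12. One of these, 8923 bp upstream of its first start (chromosome 17, 29082056), scored 186, 44.9 and 93.8 at days 4, 8 and 12. Another (29095524) lay inside the gene, 1755 bp downstream of a later annotated start, and scored 18.9, 43.4 and 186. The site with the highest Cdkn1a score thus differed between day 4 and day 12. Cdkn1b (p27) had a site 3274 bp outside the gene that scored 18.6, 32.7 and 179 at days 4, 8 and 12 and 27.5, 22.8 and 30.8 in title order, with no other protein-coding gene in its window. Cdkn2d (p19) scored 112 at day 12, at a site 567 bp outside the gene and at or nearest to Kri1.

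E2F factors carry the response to Rb phosphorylation, with E2f1 to E2f3 acting mainly as activators and the others mainly as repressors. Of the 8 genes, 6, 7, 6 and 8 had a site at days 0, 4, 8 and 12, and the counts in title order were 5, 7 and 8. 3 of the 6 positions called in all 7 libraries were at E2f2, E2f3 and E2f4. The E2f4 site, 17 bp inside the lower end of the gene (chromosome 8, 105297680), scored 122 at day 0, the highest day 0 score of the 40 genes. It scored 63.4, 231 and 345 at days 4, 8 and 12 and 62.0, 89.1 and 86.2 in title order. The E2f3 site, 39 bp into the transcript, scored 103 at day 0, 27.2, 191 and 231 at days 4, 8 and 12, and 27.1, 62.0 and 42.1 in title order. The E2f2 site, 2528 bp upstream of an annotated start and inside the gene (chromosome 4, 136178254), ranked low at day 0, at 7.59, and high at day 12, at 498. Between these it scored 77.3 and 108 at days 4 and 8, and in title order it scored 62.9, 43.0 and 223.

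E2f1 differed from these in that 2 neighbouring positions near its start were called in different libraries. The position 32 bp into the transcript had a day 0 score of 6.28 and scored 4.11 under Day 12- 8. The position 251 bp into it (chromosome 2, 154569175) scored 161, 148 and 464 at days 4, 8 and 12 and 105 under Day 12- 12. Neither was called under Day 12- 4. Each peak gives 1 summit, so neighbouring bound positions in a broad peak may be merged by the caller. E2f8, an atypical repressor, scored 271, 92.2 and 173 at days 4, 8 and 12, at a site 877 bp upstream of a start. E2f5 scored 91.7 at day 12 and 17.1 at day 0 at a site 22 bp inside one end of the gene. Its highest day 12 score, 104, came from a site 5004 bp outside the gene and at or nearest to Rbis. E2f6 and E2f7 scored 7.42 and 9.48 at day 12. The E2f6 site lay 9812 bp outside the gene, at or nearest to Greb1.

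Rb1, Rbl1 and Rbl2 encode the pocket proteins that hold E2F factors in check. All 3 had a site in each restoration library, and 1, 3 and 2 had one in title order, with Rbl2 the one under Day 12- 4. The only day 0 site of Rbl2 lay 10000 bp outside the gene, at the limit of the window. It was at or nearest to Aktip and scored 4.57. A site 12098 bp into Rbl2 (chromosome 8, 91082155) scored 226, 68.9 and 344 at days 4, 8 and 12. It scored 23.5 and 36.9 under Day 12- 4 and Day 12- 12 and lacked a call under Day 12- 8 and in untreated cells. The site 103 bp inside one end of Rb1 scored 9.27 at day 0 and 52.3 and 60.4 at days 8 and 12, with no day 4 call. At Rbl1 the position 44 bp into the transcript followed the same calls in the restoration series, at 7.85, 11.0 and 18.9, while a site 2827 bp into Rbl1 was called at day 4 (77.3), day 8 (35.7) and day 12 (7.66).

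Of the 7 genes of S phase and mitosis, 2, 6, 5 and 7 had a site at days 0, 4, 8 and 12, and 6, 6 and 7 in title order. Mki67, which encodes the proliferation marker Ki-67, had a site 294 bp upstream of its start in all 7 libraries, with scores of 47.2 at day 0, 45.0, 131 and 283 at days 4, 8 and 12, and 83.8, 154 and 111 in title order. No other gene of the 40 scored as high as 154 under Day 12- 8. Pcna, the sliding clamp of the replicative polymerases, lacked a day 0 site. The site 428 bp into its transcript scored 18.5, 57.0 and 242 at days 4, 8 and 12 and 27.9, 33.5 and 43.0 in title order. Aurka, a kinase of the mitotic spindle pole, had a site 133 bp upstream of its start in 6 libraries, with a day 12 score of 99.5, that also lay in Cstf1. The highest Aurkb scores, 156 at day 4 and 135 at day 12, came from a site 9611 bp outside that gene and at or nearest to Ctc1.

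Top2a, the topoisomerase that untangles chromosomes, scored 9.92 at day 4 and 60.5 at day 12 at a site 24 bp into its transcript and had no site at days 0 and 8 or under Day 12- 4 and Day 12- 8. Bub1, a checkpoint kinase, had no site at days 0, 4 and 8 and scored 55.1 at day 12. Plk1, a kinase that drives mitotic entry, scored 35.5 at day 12, 95 bp into its transcript. The mitotic genes Ccnb2, Plk1, Bub1 and Top2a thus had highest day 12 scores below the median of 151 for the 40 genes. The same was true of Aurka and Aurkb, while Cdk1 and Ccnb1 lay above it. The Ccnb1 score came from the site at or nearest to Cenph, and the position 118 bp upstream of the Ccnb1 start scored 19.9. The Aurka and Aurkb scores also came from sites at or nearest to a neighbour. A position 97 bp inside one end of Aurkb scored 33.8 at day 12.

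By gene, 13 of the 40 had a site in all 7 libraries (Mcm2, Mcm5, Ccnd3, Cdk2, Cdk6, Cdkn2c, E2f1, E2f2, E2f3, E2f4, Rbl2, Mki67 and Aurkb), against 17.5% of all protein-coding genes. For Mcm2, Cdk2, Cdkn2c, Rbl2 and Aurkb the day 0 site lay outside the gene and at or nearest to another gene. By position the number was smaller. Summits within 100 bp of each other were merged into 512 positions, and 6 of these, at Cdk2, Cdkn2c, E2f2, E2f3, E2f4 and Mki67, were called in all 7 libraries. A further 11 positions were called in 6 libraries, and 332 in 1. Of the 332, 160 were called under Day 12- 12 alone, with a median score of 5.65, and 70 at day 12 alone, with a median of 7.42.

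**Figure D2:**
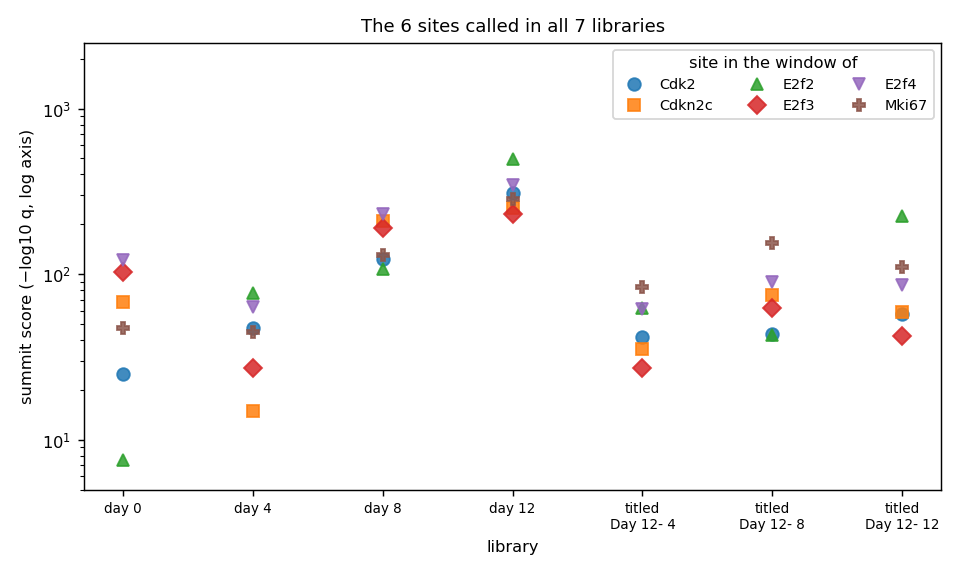
Points give the score (−log10 q, log axis) of each of the 6 positions called in all 7 libraries, named by the gene whose window holds it. At day 12 they lie between 231 and 498, and at day 0 between 7.59 and 122.

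How often these positions recurred was set beside the whole lists. Of the 212 day 12 summits in the gene windows, 4.25% lay within 100 bp of a day 0 summit (1.96 to 7.91, exact 95% interval), against 3.11% of the whole day 12 list. The share called at day 4 was 31.6% (25.4 to 38.3) against 23.4%, and at day 8 it was 34.9% (28.5 to 41.7) against 23.2%. For Day 12- 4 and Day 12- 8 the shares were 16.0% (11.4 to 21.7) and 19.3% (14.3 to 25.3), against 8.24% and 8.38% of the whole list. For Day 12- 12 the share was 49.1% (42.1 to 56.0), against 46.8%. Intervals cover counting error alone, and sites of 1 gene are not independent. The whole lists also hold summits far from genes, so these shares are not matched for position relative to genes. Of the 22 day 0 summits near these genes, 15 (68.2%, 45.1 to 86.1) were called under Day 12- 8, against 46.1% of the whole day 0 list. At days 8 and 12 it was 10 and 9 of 22, or 45.5% and 40.9%, against 37.9% and 33.4%. Their intervals (24.4 to 67.8 and 20.7 to 63.6) included the share of the whole list, as did the interval for Day 12- 8. The same held at day 4 (31.8%, 13.9 to 54.9, against 16.3%) and under Day 12- 4 (31.8%, 13.9 to 54.9, against 19.3%). It also held under Day 12- 12 (40.9%, 20.7 to 63.6, against 22.2%).

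The share of the 40 genes with a site was then compared with that of other protein-coding genes within 10% of each gene's length, averaged over the 40. At day 0 it was 50% (33.8 to 66.2), against 38.2% for genes of like length and 36.8% for all protein-coding genes. At day 4, 36 genes or 90.0% (76.3 to 97.2) had a site, against 74.6% of genes of like length and 69.8% of all. At day 8, 34 genes or 85.0% (70.2 to 94.3) had one, against 66.4% and 61.7%. At day 12 all 40 did (91.2 to 100), against 82.5% and 77.1%. The share thus lay above that of genes of like length in these 4 libraries, and at day 0 its interval included it.

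Under Day 12- 4, 28 genes or 70.0% (53.5 to 83.4) had a site, against 38.5% of genes of like length and 34.8% of all. Under Day 12- 8, 38 genes or 95% (83.1 to 99.4) did, against 66.2% and 61.8%. Under Day 12- 12, 38 genes did, against 83.2% and 78.9%, so that the like-length share lay at the edge of the interval. The widest gap, under Day 12- 4, came with a list of 9868 summits, close in length to that of day 0. The median of the highest score per gene, with genes lacking a site at 0, was 151 at day 12 for the 40 genes and 33.4 for all protein-coding genes. At day 4 these medians were 28.4 and 15.6. Among genes with a site only, the medians were 151 and 67.1 at day 12 and 35.1 and 34.3 at day 4. At day 0 they were 9.05 and 10.7.

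The lists differed in length by up to 18.5 times, so each was also reduced to its 8043 highest-scoring summits, the length of the day 0 list. The number of genes with a site was then 14, 21 and 27 at days 4, 8 and 12, against 25.5%, 29.2% and 35.2% of all protein-coding genes. It was 27, 27 and 23 in title order, against 31.0%, 37.8% and 31.0%. Against genes of like length the shares were 35.0% (20.6 to 51.7) with 26.6% at day 4, and 67.5% (50.9 to 81.4) with 39.9% at day 12. At equal list length the day 4 count was thus below the day 0 count of 20, whereas in the full lists it was above it.

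**Figure D3:**
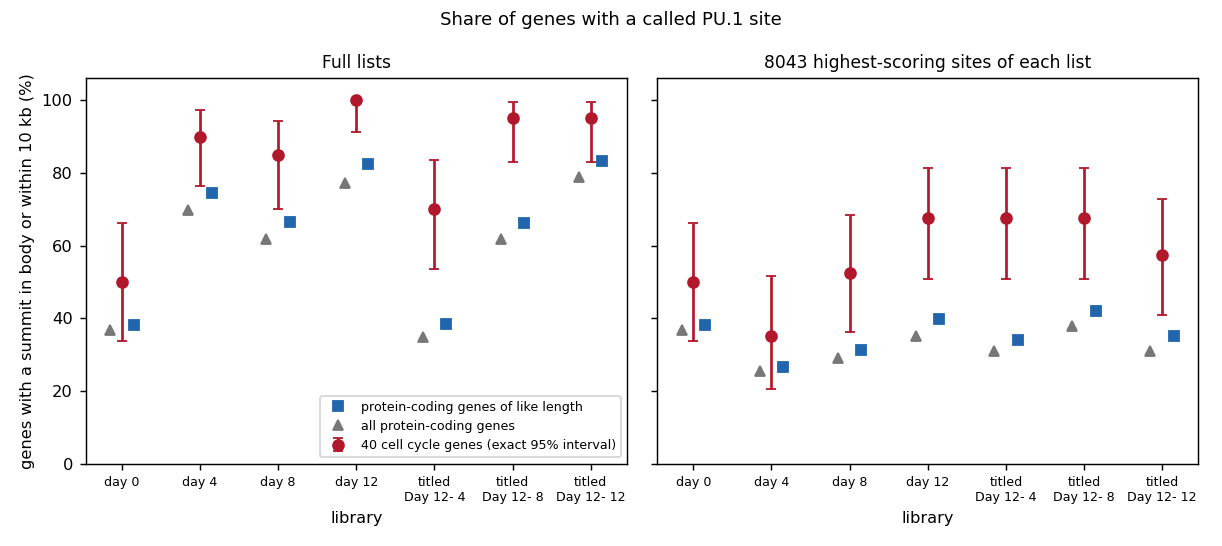
Red circles give the percentage of the 40 genes with a summit in the body or within 10 kb in each library, with exact 95% intervals, blue squares that of protein-coding genes of like length and grey triangles that of all protein-coding genes. In the full lists (left) the red points of days 0 and 12 are at 50% and 100%, and with 8043 summits per list (right) those of days 4 and 12 are at 35.0% and 67.5%.

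Sites near annotated starts were then counted. A start was available for 31 of the 40 genes, and 8 of these had a summit within 1 kb of a start at day 0, against 25.1% of 17491 protein-coding genes with a start. The count was 18, 19 and 29 at days 4, 8 and 12, against 27.8%, 33.2% and 55.5%. In title order it was 13, 28 and 21, against 15.7%, 45.6% and 44.3%. At day 0 the share, 25.8% (11.9 to 44.6), was thus close to that of all genes, and in the other 6 libraries it lay above it. The 2 genes with a start but no such day 12 summit were E2f6 and E2f7. The 8 genes at day 0 were Ccnd3, Cdk2, Cdk6, E2f1, E2f3, E2f7, Rbl1 and Mki67.

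With 8043 summits per list the numbers near a start were 3, 8 and 13 of 31 at days 4, 8 and 12, against 6.49%, 13.3% and 20.9% of all genes. They were 12, 16 and 11 in title order, against 14.0%, 24.8% and 14.7%. As shares of the 31, days 4 and 8 gave 9.68% (2.04 to 25.8) and 25.8% (11.9 to 44.6). Both intervals included the share of all genes. At day 12 and in title order the intervals (24.5 to 60.9, 21.85 to 57.8, 33.1 to 69.8 and 19.2 to 54.6) lay above it. Counted by site, 36 of 166 day 12 positions near the 31 genes lay within 1 kb of a start, as did 8 of 16 at day 0 and 34 of 64 under Day 12- 8. Under Day 12- 12 it was 27 of 227, the lowest share of the 7 libraries, and at day 4 it was 21 of 134.

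**Figure D4:**
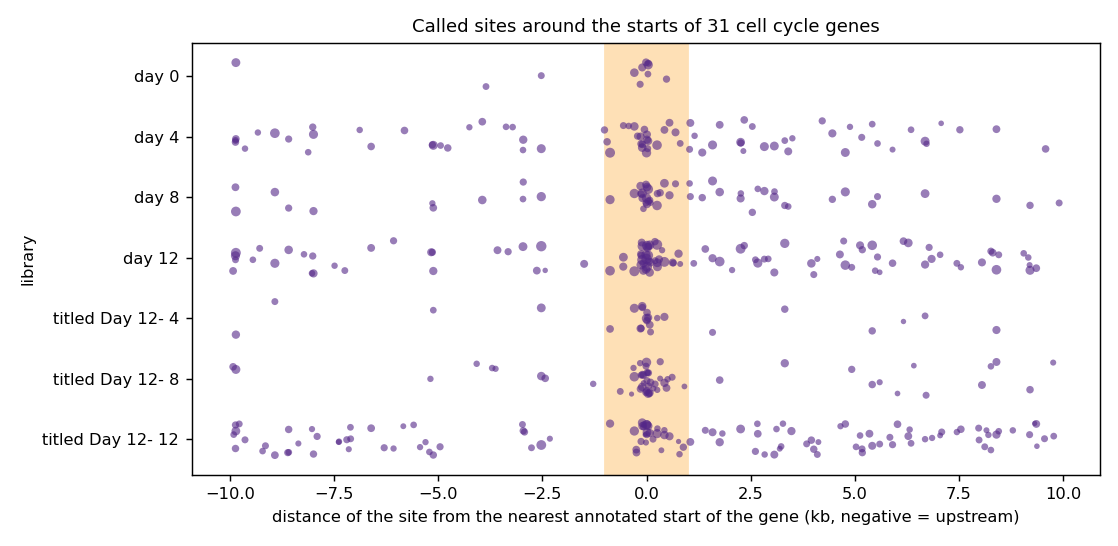
Each point is a called position within 10 kb of the nearest annotated start of 1 of 31 cell cycle genes, by library, with point size rising with the score and vertical jitter for legibility. The shaded band marks 1 kb on either side of the start, which holds 8 positions at day 0 and 36 at day 12.

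The pattern at starts was not shown to be particular to the 40 genes. A further 71 cell cycle genes covered the origin and replisome, the DREAM and MMB complexes that regulate E2F and mitotic targets, mitosis, and CDK activation and turnover. Of these, 29 had a site in the body or within 10 kb at day 0, 63, 59 and 71 at days 4, 8 and 12, and 32, 59 and 64 in title order. Among the 57 with a start, 55 (96.5%) had a summit within 1 kb of it at day 12 and 13 at day 0. Of the 28 proteasome genes with a start, a set of genes needed in every cell and added here after the counts were seen, 28 did at day 12 and 6 at day 0. Under Day 12- 4 the share with a site in the window was 70.0% for the 40 genes, 45.1% (33.2 to 57.3) for the 71 and 55.9% (37.9 to 72.8) for the 34 proteasome genes.

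**Figure D5:**
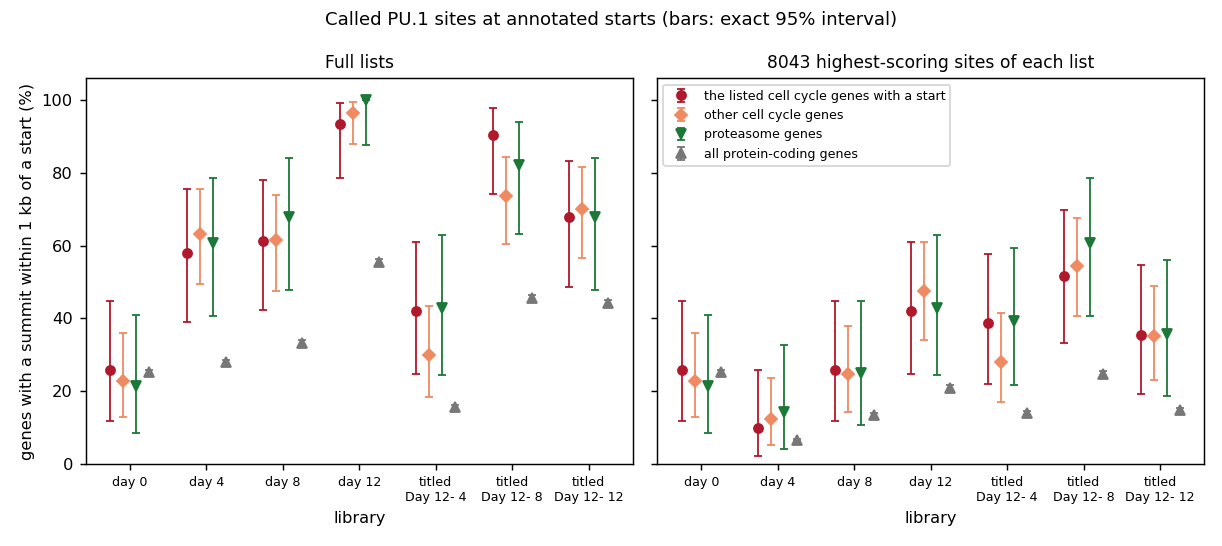
Points give the percentage of genes with a summit within 1 kb of an annotated start in each library, with exact 95% intervals, for 31 of the 40 genes, 57 other cell cycle genes, 28 proteasome genes and all protein-coding genes. At day 12 in the full lists (left) the first 3 sets lie between 93.5% and 100%, and all genes at 55.5%, and the intervals of the first 3 sets overlap there in every library.

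The windows are crowded, which limits assignment of a site to a gene. Of the 40 genes, 29 had another protein-coding gene inside the window, and for 10 the highest-scoring day 12 site lay at or nearest to such a neighbour. For 24 it lay inside the gene, and for 19 of the 31 genes with a start it lay within 1 kb of that start. Of these 40 highest-scoring day 12 sites, 25 were also called at day 4, 29 at day 8 and 8 at day 0, and 22, 24 and 29 in title order. Of the whole day 12 list, 23.4%, 23.2% and 3.11% recurred within 100 bp at days 4, 8 and 0. In title order 8.24%, 8.38% and 46.8% did. The 40 sites were chosen by score and the whole list was not. The highest-scoring sites of other genes were not counted, so these counts are no trait of the 40 genes.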

How the data were processed

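PU.1 ChIP-seq summit lists from 7 of 8 labelled AML246 samples were used. The authors deposited 1 list per sample with 1 summit per peak and a score read as a −log10 q-value, because the lowest score, 1.30104, lies just above the 1.30103 that corresponds to a q of 0.05. Per the submitters' processing notes, MACS2 was used on mm10. Which version, aligner, control, filters or pooling were used, and how deep the libraries are, is not given in the sources used here, so longer lists can reflect depth or control as well as binding.

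Summits on assembled chromosomes were assigned to 21883 protein-coding RefSeq genes (GRCm38.p6, mitochondrial genes left out) within the body plus 10 kb. Starts and promoter sequences came from RefSeq windows of 250 bases before to 50 after a start. Where a gene had several, the nearest was used. The like-length share used, per gene, between 286 and 1299 other genes. Intervals are exact (Clopper-Pearson, scipy 1.17.1; tables in pandas 2.3.3, plots in matplotlib 3.10.9, Python 3.11.15). Counting steps were tested on simulated data.

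Named genes were the 4 with the highest day 12 score per role and all with a site in all 7 libraries, while other members are given more briefly. Promoters were shown for positions called in at least 5 libraries in or within 100 bp of the window, at most 6 of the 9, by number of libraries and then day 12 score. Positions were merged by chaining, so 1 can span more than 100 bp. The counts within 1 kb of a start and the proteasome genes were added after the counts over the windows were seen. The members and lists were chosen with earlier results of these data known.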

Additional observations from a re-analysis of the deposited data

How the results depend on the processing

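The 20 genes with a day 0 site became 11 with the gene body alone, 9 with a score of at least 10 and 13 when a summit counted for its nearest protein-coding gene. At day 4 the count of 36 became 23 with the body alone and 14 with the 8043 highest-scoring summits. That shorter list gave 21 in place of 34 at day 8, 23 in place of 38 for the library titled Day 12- 12, and 11 in place of 20 for genes called at day 12 but not day 0. The library titled Day 12- 4 gave 17 in place of 28 with the body alone, and Day 12- 8 gave 23 in place of 38 with a score of at least 10. The 13 genes with a site in all 7 libraries became 5 with the body alone, 8 with the body plus 2 kb, 6 with a score of at least 10, 5 with the shorter list and 8 by nearest gene. The day 12 count of 40 lay between 27 and 39 under these alternatives. Only the shorter list was also counted for all protein-coding genes, library by library. Whether the 40 genes exceed other genes with the other settings, or in counts across libraries with the shorter list, was not tested. Merging within 250 bp gave 6 positions in all 7 libraries and 197, in place of 200, at day 12 and not day 0, and like-length shares within 25% differed by less than the intervals. Depth is unknown, so a missing call may be a shallow library. No paired analysis was possible because each group had 1 library.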
